A study of Mus musculus with 6 samples.

Results

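Transcripts of the stathmins and of the classical microtubule-associated proteins were followed in mouse dorsal root ganglia after vincristine. The set was fixed by gene symbol and holds 10 genes of the 38926 listed in the count tables: the stathmins Stmn1, Stmn2, Stmn3 and Stmn4, tau (Mapt), Map1a, Map1b, Map2, Map4 and doublecortin (Dcx). All 10 were found in every table and all 10 had enough reads to be tested. RNA came from whole ganglia of lumbar levels 3, 4 and 5 on the side of the treated paw, from wild-type female C57BL/6 mice of 8 to 10 weeks. In the vincristine group, which had 3 samples, the animals had been given a cumulative 40 µg of the drug by intraplantar injection, and in the vehicle group, also of 3 samples, they had been given vehicle. Each sample pooled ganglia of 4 animals, so no value belongs to a single mouse, and p-values measure the spread between pools. The tables of the vincristine group are named for 10 µg rather than 40 µg, and the sources used here do not give the time from the last injection.

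Microtubules are polymers of tubulin that run along axons and carry transport. Stathmins bind free tubulin dimers and favour shrinkage of the polymer, while the microtubule-associated proteins (MAPs) coat the polymer and stabilise or space it. Vincristine, a drug of cancer chemotherapy whose use is limited by damage to peripheral nerves, binds tubulin itself, and the stathmin-like domain of the Stmn4 product has served in crystal structures of tubulin with a related vinca alkaloid. The comparison of the groups asks whether the transcripts of these tubulin partners differ in the ganglia after the drug.

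Reads counted in genes numbered from 12374331 to 26346304 per vincristine library and from 17967934 to 19917055 per vehicle library. The sensory identity of the tissue was visible in every library: all 20 sensory ganglion marker genes found in the tables (Isl1, Avil, Prdm12, Scn10a and others) had reads, and their summed level was between 1493 and 4149 CPM (read counts scaled to a common library size) with vincristine and between 3706 and 4867 CPM with vehicle. Vincristine replicate 1 stood apart from the others on the first principal component, which held 56.4% of the variance. In that library the sensory markers summed to 1493 CPM, and a list of 18 pan-neuronal genes summed to 3986 CPM, against 8063 and 9648 CPM in vincristine replicates 2 and 3 and 8333 to 11010 CPM with vehicle. Markers of spinal cord cells summed to 382 CPM in vincristine replicate 1, against 118 and 97.7 CPM in the other vincristine libraries and 72.8 to 153 CPM with vehicle. In bulk tissue fewer neurons, less RNA per neuron and more RNA from other cells cannot be told apart. White and red blood cell markers were high in all 3 vincristine libraries, most in replicate 1: the 16 neutrophil genes had median values of 2.84, 1.30 and 1.42 with vincristine and 0.38, -0.36 and -0.036 with vehicle, and the 12 erythroid genes 2.42, 0.94 and 1.27 with vincristine and 0.16, -0.29 and 0.20 with vehicle (log2 CPM against the vehicle mean). Of these genes edgeR called 0 in either list, with 15 neutrophil and 12 erythroid genes at a raw p under 0.05, and DESeq2 called 13 and 9. Of all genes tested, edgeR called 0.359% and had 11.4% at a raw p under 0.05, and DESeq2 called 2.84% of genes with an adjusted p. The 15 macrophage genes had medians of 0.98, 0.40 and 0.52 with vincristine and 0.14, -0.14 and -0.085 with vehicle; edgeR called 0, with 11 higher and 1 lower at a raw p under 0.05, and DESeq2 called 5 higher and 1 lower. The 15 skeletal muscle genes, of which edgeR called 0 and DESeq2 1, summed to 602, 2572 and 739.9 CPM with vincristine and 229.7, 322 and 1103 CPM with vehicle, so that vincristine replicate 2 stood highest. Results are given with and without vincristine replicate 1, and also with libraries scaled to the pan-neuronal genes.

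Of the 10 genes, 1 rose, Stmn4, and 0 fell by edgeR's quasi-likelihood test with Benjamini-Hochberg adjustment over all 16706 genes tested. The same test called 0.359% of all genes in either direction, 0.293% higher and 0.0658% lower. DESeq2 also called 1 of the 10, the same gene, where it called 2.84% of all genes with an adjusted p, and 2.44% as higher. The median log2 fold change (vincristine minus vehicle) of the 10 was -0.077, against -0.0033 over all genes, with 5 positive and 5 negative values. Levels in vincristine and vehicle libraries did not overlap for 1 of the 10 genes, and for 21.0% of all genes tested, 11.5% with vincristine higher and 9.51% with vincristine lower. Without vincristine replicate 1 edgeR again called 1 of the 10, Stmn4, beside 2.05% of all genes in either direction and 1.79% as higher.

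**Figure D1:**
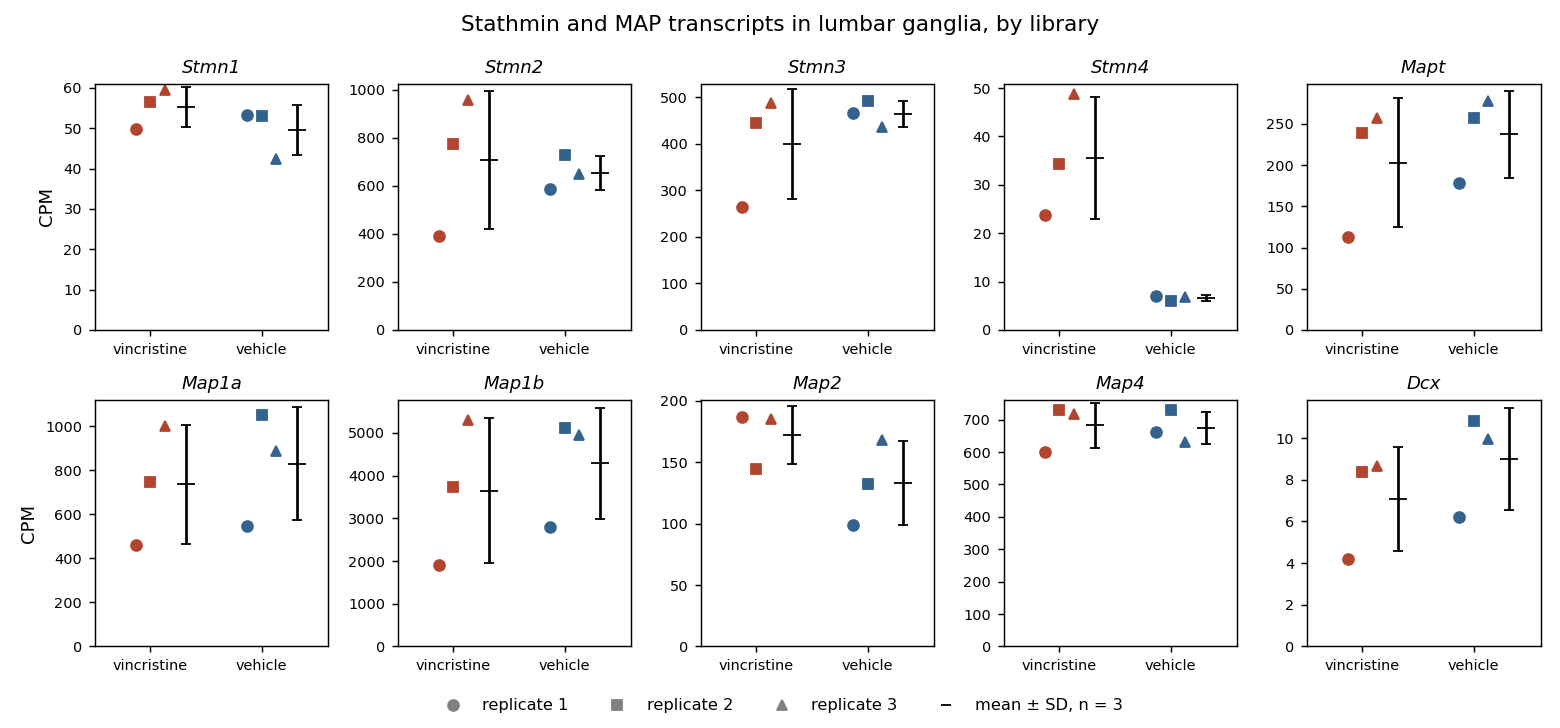
Level of each of the 10 genes in CPM (linear axis from 0) in every library, vincristine on the left and vehicle on the right; symbols mark replicates 1 to 3 and the bar is mean ± SD (n = 3). Stmn4 sits between 23.7 and 48.8 CPM with vincristine and between 5.99 and 7.06 CPM with vehicle, while the groups overlap for the other genes, with vincristine replicate 1 lowest for 7 of them.

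Stmn4 encodes RB3, a membrane-bound stathmin made mainly by neurons. The gene lies on chromosome 14 from 66344296 to 66361680 on the plus strand (GRCm38, GENCODE M21), is protein-coding, and overlaps no other annotated gene. Stmn4 had 306, 658 and 1266 reads in vincristine replicates 1, 2 and 3, against 126, 115 and 137 reads in vehicle replicates 1, 2 and 3. Scaled by library size, Stmn4 stood at 23.7, 34.4 and 48.8 CPM with vincristine, against 7.06, 5.99 and 6.85 CPM with vehicle. The lowest vincristine library was thus well above the highest vehicle library, and the vehicle libraries lay close together while the vincristine libraries were spread by a factor of 2.06. Means were 35.6 ± 12.6 CPM with vincristine and 6.63 ± 0.565 CPM with vehicle (SD, n = 3 each), a 5.39-fold difference with a 95% interval of 3.49 to 8.32. The log2 fold change was 2.43 ± 0.27 (SE; edgeR adjusted p = 0.0221), the 37th highest of all. The call depended on which libraries were in: by edgeR the adjusted p was 0.000534 without vincristine replicate 1 and 0.0201 without vincristine replicate 3, and it was 0.0791 without vincristine replicate 2 and 0.207, 0.160 and 0.182 without vehicle replicates 1, 2 and 3. DESeq2 called Stmn4 in each of these, and the log2 fold change stayed between 2.12 and 2.65 over both tools.

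Marker levels are set beside Stmn4 here. Vincristine replicates 2 and 3 had pan-neuronal medians of -0.053 and 0.17 and spinal cord medians of 0.25 and -0.073 (log2 CPM against the vehicle mean), and their Stmn4 values were 2.36 and 2.86 on the same scale. Vincristine replicate 1 had medians of -1.05 and 2.11 for those lists and a Stmn4 value of 1.82. The neutrophil, erythroid, macrophage and dividing cell medians were above every vehicle library in all 3 vincristine libraries, as Stmn4 was. They were highest in replicate 1, where Stmn4 was lowest of the 3. For the 28 dividing cell genes the medians were 1.76, 0.50 and 0.55 with vincristine and 0.13, -0.44 and 0.29 with vehicle. Of these 28, edgeR called 0, with 18 higher at a raw p under 0.05, and DESeq2 called 6 as higher. The shares over all genes in either direction were 0.359%, 11.4% and 2.84%. The part of any of these lists in the Stmn4 value was not tested. With libraries scaled to the pan-neuronal genes, Stmn4 was higher by 2.69 ± 0.36 on the log2 scale (SE; edgeR adjusted p = 0.0294). Relative to the pan-neuronal genes, the vincristine libraries were at 2.88, 2.49 and 2.75 and the vehicle libraries at 0.37, -0.32 and -0.042 (log2, relative to the vehicle mean). On this scale vincristine replicate 1 was the highest of the 3 and no longer the lowest. A typical gene in that library is lifted by this scale, since the pan-neuronal median there was -1.05 and the median of all genes -0.0015. The change of order is therefore not particular to Stmn4. The 18 reference genes themselves had a median log2 fold change of -0.25, with 3 positive, and 0.042 without vincristine replicate 1. EdgeR called 0 of them. The lowest, the neurofilament gene Nefl, was at -0.79 and its groups did not overlap.

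**Figure D2:**
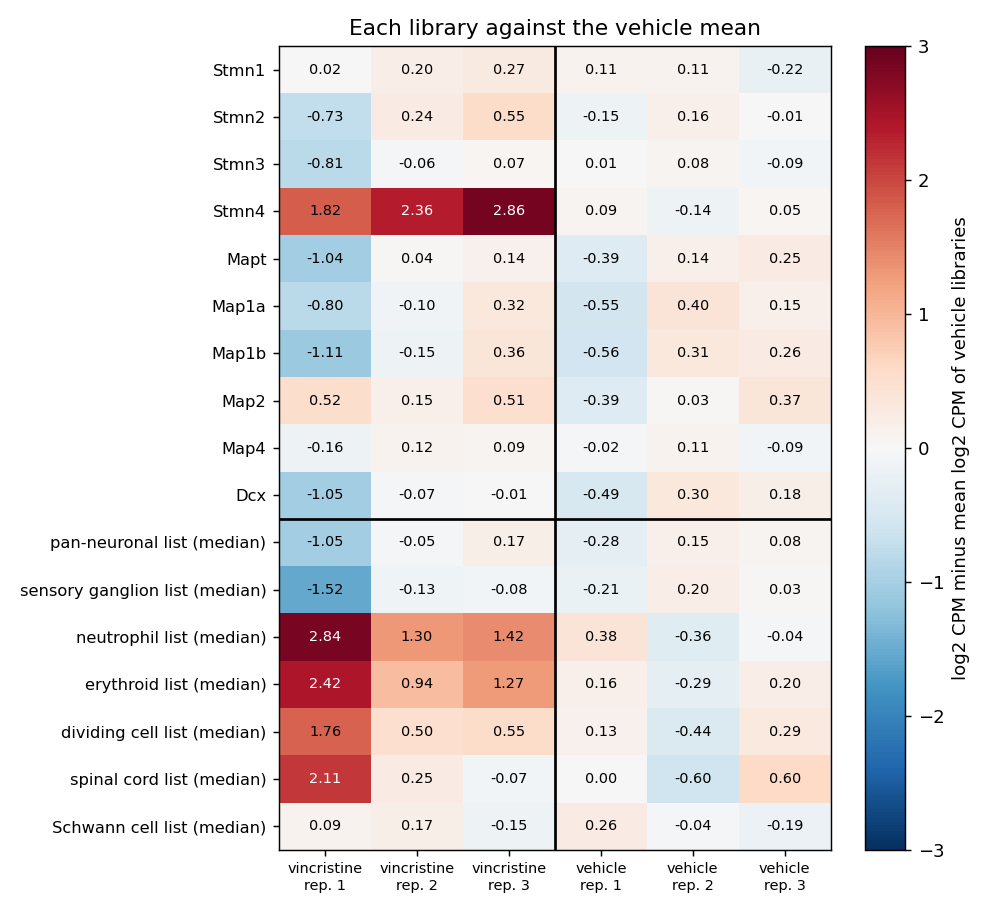
Log2 CPM of each gene (upper rows) and median log2 CPM of 7 marker lists (lower rows) in each library, minus the mean of the vehicle libraries; colour runs from -3 (blue) to 3 (red), with vincristine libraries left of the line. Stmn4 is the one gene whose 3 vincristine values, 1.82, 2.36 and 2.86, all exceed those of every vehicle library; the column of vincristine replicate 1 is low for Mapt, Map1b and Dcx, at -1.04, -1.11 and -1.05, beside -1.05 for the pan-neuronal list.

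Because the 4 stathmins are related proteins, their levels were compared within each library, per kilobase of annotated exon, which needs no scaling between libraries. Stmn3 made up the largest share of the summed stathmin level in all 6 libraries, followed by Stmn2, Stmn1 and Stmn4. That Stmn3 led rests on the division by length, 1136 exon bases for Stmn3 and 5602 for Stmn2. In reads Stmn2 led, at 53.7%, 59.0% and 61.7% with vincristine and 52.8%, 57.0% and 57.2% with vehicle. Stmn3 then had 36.3%, 34.0% and 31.4% with vincristine and 41.8%, 38.4% and 38.5% with vehicle. Per kilobase, Stmn4 took 3.62%, 3.11% and 3.89% of the sum with vincristine, against 0.674%, 0.527% and 0.682% with vehicle. The groups did not overlap, and the difference of means, 2.91 percentage points, had an exact two-sided permutation p of 0.1, the smallest that 3 against 3 samples allow. Stmn3 took 68.3%, 67.9% and 65.3% per kilobase with vincristine and 75.1%, 72.9% and 73.1% with vehicle, also without overlap. For Stmn1 and Stmn2 the shares overlapped, with Stmn2 at 20.5%, 23.9% and 26.1% with vincristine and between 19.2% and 22.03% with vehicle. Shares of a whole move against each other, so the lower Stmn3 share is not separate from the higher shares of the others. After vincristine Stmn4 therefore remained the least abundant stathmin, at 18.6 ± 6.58 CPM per kilobase beside 28.8 ± 2.55 for Stmn1. With vehicle the same levels were 3.46 ± 0.295 for Stmn4 and 25.8 ± 3.25 for Stmn1 (SD, n = 3).

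**Figure D3:**
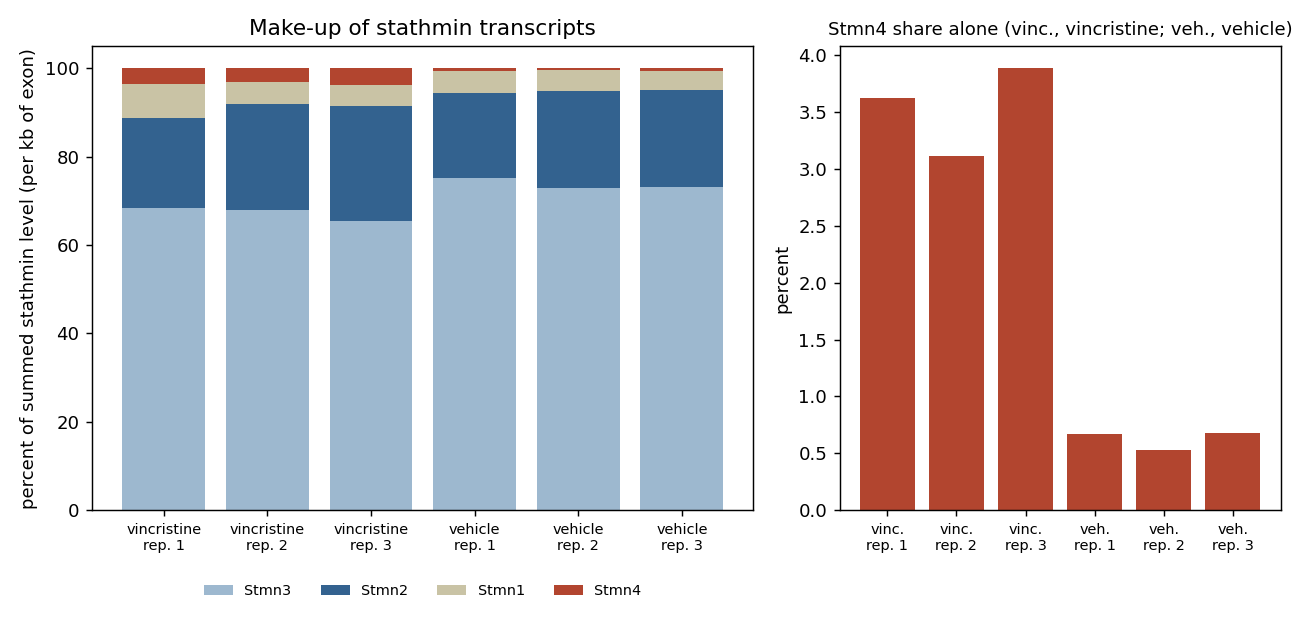
Left, percent of the summed stathmin level (CPM per kilobase of exon) taken by Stmn3, Stmn2, Stmn1 and Stmn4 in each library; right, the Stmn4 share alone on an axis from 0. The Stmn4 share is 3.11% to 3.89% with vincristine and 0.527% to 0.682% with vehicle, and the Stmn3 share is 65.3% to 68.3% with vincristine and 72.9% to 75.1% with vehicle.

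The genes whose pattern over the 6 libraries was most like that of Stmn4 were Liph, Lrrc15, Sox11, Lamb3 and Gal, in that order. Likeness was the root mean square difference of log2 CPM centred on the vehicle mean, over 15623 genes that averaged 1 CPM or more, and it was 0.19, 0.21, 0.22, 0.22 and 0.24 for the 5 genes. Liph, a phospholipase gene, stood at 1.78, 3.19 and 4.09 CPM with vincristine and 0.448, 0.313 and 0.450 CPM with vehicle. Sox11, a transcription factor gene of developing neurons, stood at 10.1, 22.4 and 29.5 CPM with vincristine and 3.19, 2.97 and 3.70 CPM with vehicle. Gal, which encodes the neuropeptide galanin, stood at 14.2, 19.7 and 36.5 CPM with vincristine and 4.99, 5.32 and 4.75 CPM with vehicle. The choice by likeness fixes that these genes share the direction of Stmn4 and the rough size of its difference. Of the 5, Liph, Lrrc15 and the laminin chain gene Lamb3 passed by edgeR (adjusted p = 0.0443, 0.0373 and 0.0269), and Sox11 and Gal did not (edgeR adjusted p = 0.0530 and 0.0692).

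Stmn2 and Stmn3 were the abundant stathmins of the ganglia. Stmn2 encodes SCG10, a palmitoylated stathmin of axons and growth cones, and lies on chromosome 3 from 8509360 to 8561606 on the plus strand. Stmn2 stood at 392, 772 and 957 CPM in vincristine replicates 1, 2 and 3, and at 588, 729 and 647 CPM in vehicle replicates 1, 2 and 3. The vincristine values enclosed the vehicle values, with replicate 1 below and replicates 2 and 3 above all of them. The log2 fold change was 0.11 ± 0.32 with a 95% interval from -0.64 to 0.86 (SE; edgeR adjusted p = 0.921). Without vincristine replicate 1 it was 0.40 ± 0.15 with an interval from 0.053 to 0.75, with a raw p of 0.0292 and an edgeR adjusted p of 0.30, so it did not pass. In that fit 13.0% of all genes were at an unadjusted p under 0.05. Relative to the pan-neuronal genes Stmn2 did not overlap between the groups, at 0.31, 0.36 and 0.42 with vincristine and 0.12, -0.019 and -0.10 with vehicle (log2, relative to the vehicle mean). Among all genes 8.46% were higher without overlap on that scale, and the fit scaled to these genes gave 0.36 ± 0.23 (SE; edgeR adjusted p = 0.669).

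Stmn3, which encodes the related protein SCLIP, lies on chromosome 2 from 181306459 to 181314500 on the minus strand. It stood at 265, 445 and 487 CPM with vincristine and at 466, 492 and 435 CPM with vehicle. Vincristine replicates 2 and 3 lay within the vehicle range and replicate 1 below it. The log2 fold change was -0.22 ± 0.24 over all libraries and 0.0044 ± 0.11 without vincristine replicate 1 (SE; edgeR adjusted p = 0.759 and 0.994). In the fit without replicate 1 the 95% interval ran from -0.26 to 0.27.

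Stmn1 encodes the founding stathmin, which is made in many cell types and is abundant in dividing cells. It lies on chromosome 4 from 134468320 to 134473843 on the plus strand, shares 66 exon bases with an annotated miRNA gene, and has a processed pseudogene copy on chromosome 9, so reads that align to both could be lost. Stmn1 stood at 49.9, 56.5 and 59.4 CPM with vincristine and 53.2, 53.0 and 42.3 CPM with vehicle, which gave a log2 fold change of 0.16 ± 0.13 and an interval from -0.14 to 0.46 (SE; edgeR adjusted p = 0.680). The groups overlapped, and Stmn1 had one of the narrowest spreads of the 10 genes, with the highest library 1.40 times the lowest. Vincristine replicate 1, which was low for Stmn2 and Stmn3, was within the vehicle range for Stmn1. In that library the 28 genes of dividing cells summed to 1586 CPM, against 658 and 706 CPM in the other vincristine libraries and 329 to 567 CPM with vehicle; their part in the Stmn1 value was not tested.

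Map1b was the most abundant of the 10 genes by reads, and a main structural MAP of axons. Map1b and Map1a are each translated as a precursor that is cut into a heavy and a light chain; Map1b is known as the form of growing axons and Map1a as that of mature neurons. Map1b lies on chromosome 13 from 99421446 to 99516540 on the minus strand, and Map1a on chromosome 2 from 121289600 to 121310832 on the plus strand. Map1a shares 272 exon bases, 2.24% of its total, with Ppip5k1 on the opposite strand. Map1b stood at 1912, 3728 and 5293 CPM with vincristine and at 2796, 5119 and 4945 CPM with vehicle. Both groups were wide, with vehicle libraries differing by a factor of 1.83 and vincristine libraries by 2.77. The log2 fold change was -0.23 ± 0.41 with an interval from -1.21 to 0.74 (SE; edgeR adjusted p = 0.864). Map1a stood at 460, 746 and 1002 CPM with vincristine and at 548, 1053 and 887 CPM with vehicle, which gave -0.17 ± 0.35 on the log2 scale (SE; edgeR adjusted p = 0.881). Low values of both genes fell in the same libraries, replicate 1 of each group. The ratio of Map1b to Map1a, free of library scaling, varied little: it was 4.15, 5.0 and 5.28 in reads with vincristine and 5.10, 4.86 and 5.57 with vehicle. The difference in its log2 means was -0.11, with SDs of 0.18 and 0.10 (n = 3 each) and an exact two-sided permutation p of 0.5, where 0.1 is the smallest possible.

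Mapt encodes tau, the MAP that bundles microtubules in axons, on chromosome 11 from 104231390 to 104332090 on the plus strand. Mapt stood at 113, 239 and 257 CPM with vincristine and at 178, 257 and 277 CPM with vehicle. Vincristine replicate 1 was the lowest library. The log2 fold change was -0.22 ± 0.32 over all libraries and 0.063 ± 0.18 without vincristine replicate 1 (SE; edgeR adjusted p = 0.825 and 0.933). Dcx encodes doublecortin, a MAP of migrating young neurons, on chromosome X from 143855842 to 143933311 on the minus strand. Dcx was scarce, with 54, 160 and 225 reads with vincristine and 111, 208 and 199 reads with vehicle. These are 4.18, 8.35 and 8.67 CPM with vincristine and 6.22, 10.8 and 9.95 CPM with vehicle, with overlapping groups. Its log2 fold change was -0.33 ± 0.32 over all libraries and -0.082 ± 0.23 without vincristine replicate 1 (SE; edgeR adjusted p = 0.723 and 0.931). Per kilobase, Dcx was at percentile 9.16 of 15786 tested genes with vincristine and at percentile 12.7 with vehicle, the lowest of the 10 genes in both groups.

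Map2 was the one gene of the 10 with its highest level in vincristine replicate 1. It encodes a MAP known from dendrites. The neurons of these ganglia are usually pseudounipolar and lack dendrites, but Map2 had reads in all 6 libraries. The gene lies on chromosome 1 from 66175273 to 66442583 on the plus strand, sharing 124 exon bases with Gm10558 on the opposite strand. Map2 stood at 186, 145 and 185 CPM with vincristine and at 98.9, 132 and 168 CPM with vehicle. The groups overlapped, since vincristine replicate 2 was below vehicle replicate 3. The log2 fold change was 0.37 ± 0.21 with an interval from -0.13 to 0.87 (SE; edgeR adjusted p = 0.564). Against the vehicle mean, Map2 was at 0.52, 0.15 and 0.51 in vincristine replicates 1, 2 and 3 (log2 CPM). Relative to the pan-neuronal genes it was at 1.56, 0.27 and 0.38 in these libraries and at -0.12, -0.15 and 0.28 with vehicle (log2, relative to the vehicle mean). A typical gene in vincristine replicate 1 is lifted by that scale: the pan-neuronal median there was -1.05 and the median of all genes -0.0015. Stmn1 and Map4 stood at 1.06 and 0.88 there on the same scale. Genes of spinal cord neurons and glia were high in vincristine replicate 1. Gad1, a GABA-synthesising enzyme gene, stood at 15.3 CPM there, against 2.19 and 1.93 CPM in the other vincristine libraries and 2.47, 2.55 and 3.15 CPM with vehicle. The glycine transporter gene Slc6a5 stood at 26.0 CPM there, 5.53 and 5.28 CPM in the other vincristine libraries and 4.99, 1.30 and 8.15 CPM with vehicle. Of the 15 spinal cord markers in the tables, Mnx1, a motor neuron gene, was at 0 reads in all 6 libraries. In vincristine replicate 1 also 24.8% of alignments were assigned to no feature by the counter, against 14.8% to 17.0% in the other 5 libraries. The part of either in the Map2 value was not tested. As a share of the 6 MAP genes per kilobase, which needs no library scaling, Map2 took 5.04%, 2.28% and 2.20% with vincristine and 2.04%, 1.61% and 2.15% with vehicle. The groups did not overlap on that measure (exact two-sided permutation p = 0.1, the smallest possible), with vincristine replicates 2 and 3 just above the highest vehicle library. Shares of a whole move against each other, so the Map2 share is not separate from those of the other MAP genes. Map1b, the largest, took 53.6%, 61.0% and 65.5% with vincristine and 59.7%, 64.5% and 65.8% with vehicle. In CPM, Map2 was at 186 and 185 in vincristine replicates 1 and 3, and its groups overlapped.

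Map4, the MAP of most cell types outside mature neurons, lies on chromosome 9 from 109931460 to 110083955 on the plus strand. It had the narrowest spread of the 10 genes, at 602, 729 and 717 CPM with vincristine and 662, 729 and 632 CPM with vehicle. The log2 fold change was 0.018 ± 0.16 with an interval from -0.36 to 0.39 (SE; edgeR adjusted p = 0.979). In fold terms the interval ran from 0.780 to 1.32.

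**Figure D4:**
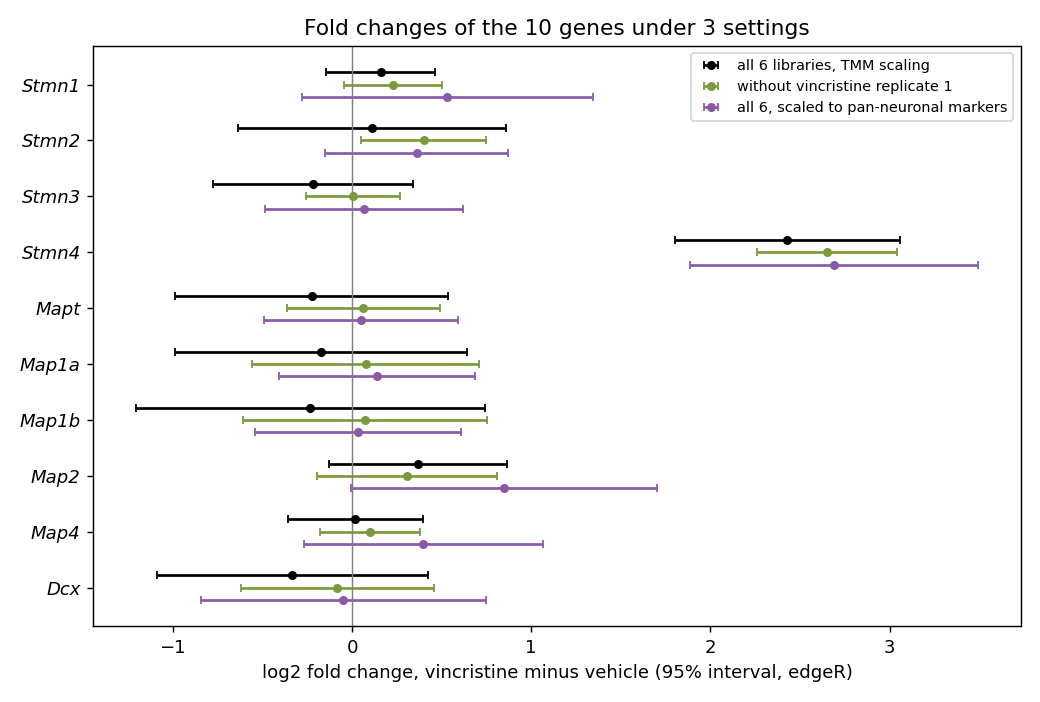
Log2 fold change (vincristine minus vehicle) of each gene with its 95% interval from edgeR: all 6 libraries, without vincristine replicate 1, and scaled to 18 pan-neuronal genes. The Stmn4 intervals start at 1.80, 2.26 and 1.89 in the 3 settings; of the others, Stmn2 without vincristine replicate 1 is the one interval that lies above 0, from 0.053 to 0.75.

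Scaling to the pan-neuronal genes, under which edgeR called 1 of the 10 and 0.114% of all genes, moved the median of all genes from -0.0033 to 0.40. Genes that follow the pan-neuronal genes over the libraries are drawn towards 0 by it, so nearness to 0 on this scale tests nothing. On that scale the log2 fold changes were 0.050 ± 0.24 for Mapt, 0.14 ± 0.24 for Map1a, 0.031 ± 0.26 for Map1b, 0.067 ± 0.25 for Stmn3, -0.048 ± 0.36 for Dcx and 0.36 ± 0.23 for Stmn2 (SE; edgeR adjusted p from 0.669 to 0.939). Each of these lay below the median of all genes. The genes with wide use outside neurons had larger values, 0.53 ± 0.36 for Stmn1 and 0.40 ± 0.30 for Map4, near that median. Map2 was at 0.85 ± 0.38 (SE; edgeR adjusted p = 0.669 for each of these 3).

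Levels per kilobase of annotated exon ordered the 10 genes within the tissue; the annotated exons of all transcripts were merged, so genes with many alternative exons are understated. With vincristine the order was Stmn3 at 351 ± 104, Map1b at 230 ± 107, Stmn2 at 126 ± 51.4, Map1a at 60.5 ± 22.3 and Map4 at 45.1 ± 4.63 CPM per kilobase, then Stmn1, Mapt, Stmn4, Map2 and Dcx. With vehicle Stmn3 led at 409 ± 24.7, followed by Map1b at 271 ± 81.6, Stmn2 at 117 ± 12.7, Map1a at 68.2 ± 21.2 and Map4 at 44.5 ± 3.28 CPM per kilobase, then Mapt, Stmn1, Map2, Stmn4 and Dcx (SD, n = 3 each). The neighbours Map1a and Map4, and Stmn1 and Mapt, overlapped in both groups. With vincristine, where replicate 1 widened the ranges, Stmn3 and Map1b, Map1b and Stmn2, Stmn2 and Map1a, and Mapt and Stmn4 overlapped as well. Stmn4 stood at percentile 83.6 of the tested genes with vincristine and 39.5 with vehicle, and of the other 9 genes Map2 differed most, at percentile 69.8 with vincristine and 63.0 with vehicle.

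Other genes of the microtubule system were also compared. The 5 lists covered other lattice-binding proteins, plus-end proteins, severing enzymes, tubulin-modifying enzymes and kinases of stathmins and MAPs. Of the 122 genes tested, edgeR called 0, beside 0.359% of all genes, so that count is near the share over all genes. DESeq2 called 0, beside 2.84% of all genes with an adjusted p. By edgeR 5 had a raw p under 0.05, 4 of them higher and 1 lower, against 11.4% of all genes. Groups did not overlap for 13 of the 122, or 10.7%, beside 21.0% over all genes. Their median log2 fold change was -0.080, and 0.028 without vincristine replicate 1.

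Among the lattice-binding proteins 38 genes were tested, with a median of -0.14. The smallest p-values belonged to Mid1, a ubiquitin ligase gene of microtubules, at 0.56 ± 0.21, and to Map7d1, at 0.35 ± 0.15 (log2, SE; edgeR adjusted p = 0.382 and 0.436). Among 21 plus-end genes, with a median of -0.029, these were Tacc3, whose product sits at mitotic spindles, at 0.76 ± 0.31, and Clip1, which tracks growing ends, at 0.19 ± 0.10 (edgeR adjusted p = 0.413 and 0.528). Tacc3 stood at 25.6 CPM in vincristine replicate 1, where the dividing cell genes were high, and at 12.5 and 14.0 CPM in vincristine replicates 2 and 3, against 11.0, 7.71 and 11.9 CPM with vehicle. The 9 severing genes had a median of 0.023, with Fignl1 at 0.65 ± 0.45 (edgeR adjusted p = 0.631). Of 25 tubulin-modifying enzymes, with a median of -0.040, Ttll9 was at -0.69 ± 0.26 and Vash2, a tubulin detyrosinase gene, at 0.90 ± 0.35 (edgeR adjusted p = 0.374 and 0.393). Vash2 stood at 3.10, 5.22 and 7.82 CPM with vincristine and 2.97, 2.35 and 3.45 CPM with vehicle, with replicate 1 inside the vehicle range. The 29 kinase genes had a median of -0.12, with Prkacb, a catalytic subunit of protein kinase A, at -0.34 ± 0.16 and Map2k4, a kinase upstream of JNK, at -0.38 ± 0.20 (edgeR adjusted p = 0.492 and 0.529).

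**Figure D5:**
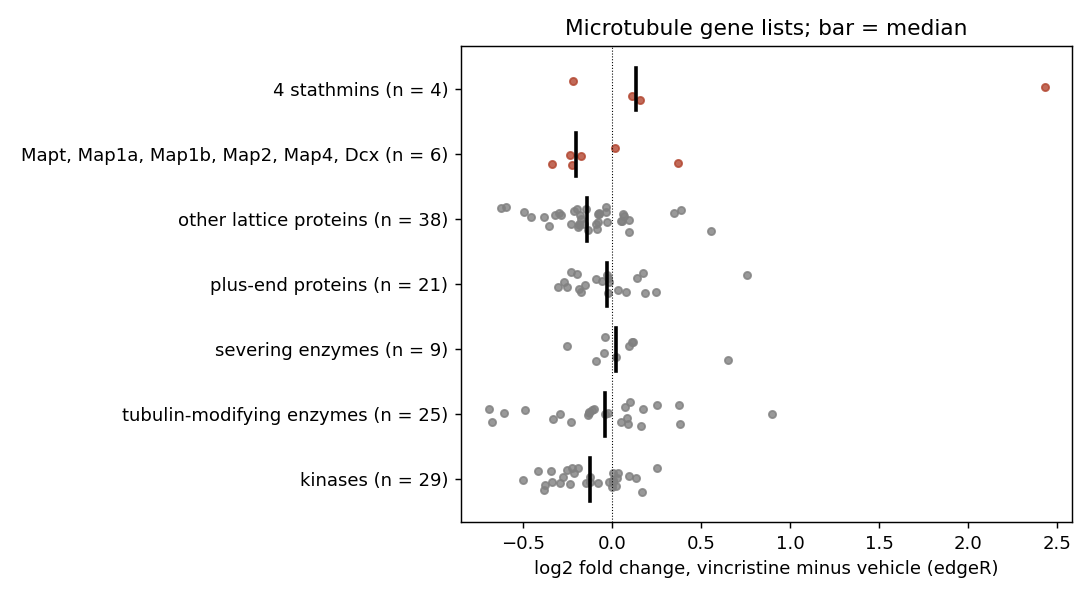
Log2 fold change (vincristine minus vehicle, edgeR) of the 10 genes (red, upper rows) and of the tested genes in 5 microtubule lists (grey), 1 point per gene, with the median of each row as a black bar; vertical scatter is for display. Stmn4 at 2.43 lies to the right of every other point, the next being Vash2 at 0.90.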

How the data were processed

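RNA was sequenced from 6 pooled samples as stranded total RNA libraries with single-end reads of 75 nucleotides, per the labels' protocols. The authors deposited 1 table of raw read counts by gene symbol for each sample, made with STAR, SAMtools and HTSeq on mm10 (GRCm38), per the submitters' processing notes; the sources used here give no versions, no annotation and no strand setting. Summary lines of the counter entered neither library sizes nor tests: of the alignments it tallied, 31.1% to 40.5% were not unique, 14.8% to 24.8% were assigned to no feature and 0.253% to 0.331% were ambiguous.

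The counts were fitted in R 4.3.3 by edgeR 4.0.16: filterByExpr (minimum count 10), TMM scaling, estimateDisp and glmQLFit (both robust) and glmQLFTest on the treatment group alone, with 4 residual degrees of freedom, p-values two-sided and Benjamini-Hochberg adjusted over 16706 genes at a threshold of 0.05. The SE is the size of the log2 fold change divided by the square root of F; 95% intervals use the total degrees of freedom of that test. CPM uses TMM-scaled library sizes. Library-wise log2 values add 0.1 CPM, except those of the 10 genes relative to the pan-neuronal genes. Gene positions and merged exon lengths come from GENCODE M21 (GRCm38), matched by symbol for 35656 of 38926 symbols. Among 296 list entries, 5 needed an older symbol and 4 were not found. Libraries of a group differed far beyond sampling noise (chi-square per degree of freedom 12.5 to 90.7), so none was a copy.

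The 10 genes, the lists and the tests were chosen with earlier results of these data known. Named besides the 10 were the called members of each microtubule list, or where none was called the 2 of smallest p, and the 5 genes most like Stmn4, except 1 gene that is not reported here; Gad1, Slc6a5 and Mnx1 were named after their values were seen. Alternatives were DESeq2 1.42.0, limma-voom (limma 3.58.1), other scalings and filters, the replicate number as a block and leaving out each library; DESeq2 with a library left out was added having seen the data. All 3 tools were tested on simulated counts.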

Additional observations from a re-analysis of the deposited data

How the results depend on the processing

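Stmn4 kept its direction in every alternative and its call in each but 4, edgeR without vincristine replicate 2 or without any 1 vehicle library (log2 fold changes of 2.13 to 2.65 by edgeR and 2.12 to 2.64 by DESeq2 over the left-out libraries). In these 4 fits edgeR called 0 of the 10 genes, with 1, 1, 1 and 2 of them at a raw p under 0.05, whereas DESeq2 called 1 each time. Left-out libraries gave 0 to 346 called genes in all by edgeR and 206 to 600 by DESeq2; without vehicle replicates 1, 2 and 3 edgeR called 0, with 1462, 1063 and 1409 at a raw p under 0.05. All 6 libraries gave 60 calls, against 551 by DESeq2, 99 with no filter on low counts and 19 with scaling to the pan-neuronal genes.

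Of the 9 uncalled genes, Stmn1, Map2 and Dcx kept their sign in every alternative. Scaling to the pan-neuronal genes put Stmn3, Mapt, Map1a and Map1b at 0.067, 0.050, 0.14 and 0.031, but it also moved the median of all genes to 0.40. Under TMM scaling without vincristine replicate 1, edgeR put the same genes at 0.0044, 0.063, 0.076 and 0.074. The median of all genes was then -0.00048. The cause of these sign changes was not tested. Stmn2 was at -0.031 by limma-voom. Over left-out libraries, edgeR and DESeq2 gave -0.18 to 0.40 and -0.19 to 0.39 for Stmn2, -0.40 to 0.0044 and -0.41 to -0.0042 for Stmn3, -0.44 to 0.063 and -0.45 to 0.053 for Mapt, -0.47 to 0.076 and -0.48 to 0.065 for Map1a, -0.62 to 0.074 and -0.63 to 0.064 for Map1b, and -0.029 to 0.10 and -0.046 to 0.091 for Map4. The Stmn4 share of the stathmins was higher by 2.44 percentage points in reads without division by length. The marker lists had 0 called genes by edgeR with all libraries, 35 by DESeq2 and 0 to 18 over left-out libraries; the causes were not tested.

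The replicate numbers of the titles name no shared source. Deviations from the group means correlated at 0.43, 0.25 and -0.094 for equal numbers 1, 2 and 3, and vincristine replicate 3 correlated best with another number, so the numbers were not taken as pairs. With a replicate block 261 genes were called in all and 21 in the marker lists, and the Stmn4 log2 fold change was 2.38 (edgeR adjusted p = 0.0119).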
